A study of Mus musculus with 20 samples.

Results

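Cortex of Abca7 knockin and control mice was compared at 3 months of age, with 5 libraries per genotype, 10 of the 20 in the series. They were chosen by their titles, which give age and genotype. Abca7 encodes a lipid transporter, and the knockin (KI) allele carries the substitution p.A693S. All mice, controls included, were males with 1 copy of the 5xFAD transgenes (5xFAD+/-), which express human APP and presenilin with familial Alzheimer's disease mutations in neurons from the Thy1 promoter, so every value below is from an amyloid background. The controls were Abca7WT/WT littermates. Both heterozygous (Abca7WT/KI) and homozygous (Abca7KI/KI) knockin mice are named in the protocol, and zygosity is not recorded for single KI libraries. Nor is it recorded that each library is a separate mouse: the p-values rest on variation among libraries, part of which may be technical. The other 10 libraries, the same genotypes at 10 months, entered the shared estimate of spread and the test of whether the effect differed with age.

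Abca7 moves phospholipids and cholesterol across membranes and is known in brain from microglia and neurons. Cortex is bordered by tissue that bulk RNA can carry along: thalamus beneath it, choroid plexus in the ventricle, meninges on its surface. Thalamic relay neurons are known for the transcription factors Shox2 and Tcf7l2 and for the kinase Prkcd, which cortical neurons express little. These genes are used here as markers of thalamic RNA, and thalamic content was not measured in any other way.

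The libraries held between 42896149 and 57447015 counts. Values below are counts scaled to a common library size (CPM), and 19623 genes were tested. Marker genes of the cortical layers were expressed in every library. The summed level of upper-layer markers ran from 898 to 1060 CPM in control and from 883 to 1040 CPM in KI. That of layer 6 markers ran from 286 to 322 and from 297 to 337 CPM. Striatal markers summed to 469 to 725 CPM in control and 508 to 580 CPM in KI, so such sums do not by themselves show tissue identity. On the leading principal component of the 10 libraries (31.3% of variance), KI replicate 3 stood apart, at -58 against -9.3 to 23.5 in the other 9. Without it 4 of the 5 calls below remained, all but 1190007I07Rik, and the list medians were 0.56 for thalamus, 0.41 for immediate-early genes, 0.16 for cholesterol synthesis and 0.52 for choroid plexus, against 0.46, 0.41, 0.16 and 0.91 with it.

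Abca7 itself (chromosome 10, 79996494 to 80015572) stood at 27.8, 29.6, 29.8, 26.8 and 27.2 CPM in control replicates 6 to 10 and at 18.8, 22.5, 26.6, 31.4 and 27.7 CPM in KI replicates 3 to 7. The groups overlapped, and the spread was wider in KI. The log2 fold change was -0.15 ± 0.13 (SE, adjusted p = 0.9998), and the substitution itself cannot be read from counts per gene.

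At 3 months 5 of 19623 genes (0.0255%) passed the test, edgeR's quasi-likelihood test with a Benjamini-Hochberg adjusted p under 0.05. Tdg and the uncharacterised gene 1190007I07Rik rose (0.0102% of genes), and Cfap54, Gm9855 and Gm15920 fell (0.0153%). Over all genes tested, 52.4% had a log2 fold change above 0 and the median was 0.0054. An unadjusted p under 0.05 was found for 745 genes (3.8%), 485 of them higher in KI (2.47%) and 260 lower (1.32%). In 129 genes (0.657%) the 5 KI and the 5 control libraries did not overlap, with 60 higher in KI (0.306%) and 69 lower (0.352%).

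Tdg encodes thymine DNA glycosylase, an enzyme of base excision repair and of active DNA demethylation. It stood at 8.54, 8.37, 8.11, 7.47 and 8.19 CPM in control replicates 6 to 10 and at 24.1, 26.6, 26.4, 27.4 and 26.3 CPM in KI replicates 3 to 7. Every KI library lay far above every control library, with a ratio of 3.215 (log2 fold change 1.69 ± 0.14, adjusted p = 7.196e-07). Gm9855 is a processed pseudogene, an intronless genomic copy, of Tdg on the same chromosome. It held 457, 372, 300, 327 and 346 counts in the control libraries and 2, 6, 7, 4 and 8 counts in the KI libraries, and so was close to absent from KI (log2 fold change -6.07 ± 0.26, adjusted p = 5.568e-12). Gm15920, a processed pseudogene of the complex I subunit gene Ndufa12, lies on chromosome 5. It stood between 17.4 and 19.7 CPM in control and between 1.82 and 3.09 CPM in KI (log2 fold change -2.89 ± 0.14, adjusted p = 2.745e-11). Its parent Ndufa12, however, lies on chromosome 10 (94198955 to 94221443), just past the end of Nr2c1, a gene described below. Ndufa12 had 0.20 ± 0.07 at 3 months (adjusted p = 0.9998), with overlapping groups, and 0.29 ± 0.07 at 10 months.

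The copies and their parents are shown because reads could be assigned to either. Over 1194 bases Tdg and Gm9855 differed at 9 positions, and over 402 bases Ndufa12 and Gm15920 differed at 2. The 60-base stretches with the most differences, from the GENCODE transcripts, are given 5′ to 3′ with the differing bases in capitals; the Tdg stretch is bases 1209 to 1268 of its transcript and the Ndufa12 stretch bases 195 to 254.
Tdg: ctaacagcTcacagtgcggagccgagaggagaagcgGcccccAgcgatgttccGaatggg
Gm9855: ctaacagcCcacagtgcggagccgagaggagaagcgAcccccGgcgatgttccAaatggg
Ndufa12: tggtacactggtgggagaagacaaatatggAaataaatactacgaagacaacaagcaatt
Gm15920: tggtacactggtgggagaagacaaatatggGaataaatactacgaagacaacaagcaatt
In these windows 4 bases tell Tdg from Gm9855 and 1 tells Ndufa12 from Gm15920. Summed over parent and copy, Tdg and Gm9855 ran from 14.05 to 16.76 CPM in control and from 24.16 to 27.51 CPM in KI. The sum of Ndufa12 and Gm15920 ran from 55.24 to 59.7 CPM in control and from 40.47 to 52.67 CPM in KI. Neither sum overlapped between genotypes, and the 2 sums differed in opposite directions. The way reads were divided between copies was not given in the sources used here, and the far end of Tdg also overlaps its neighbour Glt8d2.

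Cfap54, a gene of the axoneme of motile cilia (chromosome 10, 92775619 to 93081618), stood at 49.8, 48.9, 46.8, 44.6 and 45.8 CPM in control and at 23, 18.7, 15.6, 15.2 and 15.6 CPM in KI. All KI libraries lay far below the lowest control (log2 fold change -1.42 ± 0.13, adjusted p = 2.803e-06). The other ciliary genes did not share this: of 17 tested genes of ependyma and motile cilia, 12 lay above 0, the list median was 0.18, and Cfap54 was the 1 member with an unadjusted p under 0.05. Ciliary dynein and spoke genes had values such as 0.11 ± 0.14 for Dnah5, 0.30 ± 0.15 for Hydin and 0.29 ± 0.17 for Rsph4a. Likewise, of 21 genes of base excision repair and DNA demethylation, Tdg was the 1 called, the list median was 0.0059, and the DNA damage response gene Gadd45a had 0.39 ± 0.18.

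1190007I07Rik (chromosome 10, 82619851 to 82623228) ends just before Tdg begins. It stood between 1.73 and 2.95 CPM in control and between 3.37 and 4.52 CPM in KI, without overlap (log2 fold change 0.80 ± 0.14, adjusted p = 0.0428). This call was the weakest: without a single library its adjusted p reached 0.2459, and with the thalamic covariate described below 0.9998. It was also not called in the fit to the 3-month libraries alone or with the replicate number as a block, although its log2 fold change stayed between 0.71 and 1.07 over the alternatives run.

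**Figure D1:**
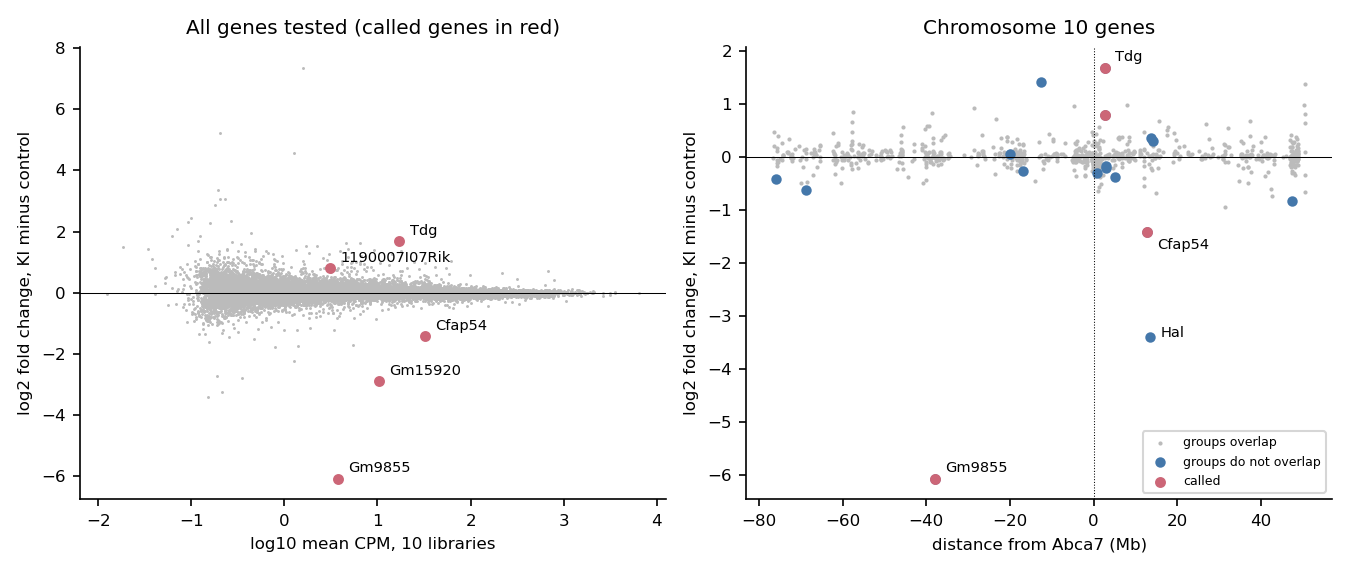
Left, log2 fold change of KI against control (y) by the log10 of mean CPM over the 10 libraries (x) for the 19623 genes tested, with the 5 called genes in red and named. Right, the same fold change for the 894 tested genes of chromosome 10 by distance from Abca7 in Mb; blue points are genes whose groups do not overlap, red points are called.

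On chromosome 10, the chromosome of Abca7, the groups did not overlap for 17 of 894 tested genes (1.9%), against 112 of 18729 (0.598%) elsewhere. Within 20 Mb of Abca7, with distances rounded, the count was 13 of 420 (3.1%), and on the rest of the chromosome 4 of 474 (0.844%). The 13 include Anapc16, which starts at 59987409 and lies slightly beyond 20 Mb before rounding. Of the 17 genes, 8 lay in 2 neighbouring runs, which were picked, as were Chst11, Hal and Nr2c1, with the values in view. Outside these runs, Pbld1, Egr2, Lingo3 and Cry1 lay within 20 Mb of Abca7, Anapc16 lay at that edge, and the other 4 lay farther away. The first run, 2.62 to 2.99 Mb from Abca7, held 1190007I07Rik, Tdg, the thioredoxin reductase gene Txnrd1 and the chondroitin sulfotransferase gene Chst11. Txnrd1 lay between 63.9 and 71.8 CPM in control and between 58.5 and 60.4 CPM in KI (-0.21 ± 0.05, adjusted p = 0.327). The second run, 12.8 to 14.2 Mb away, held Cfap54, Hal, the spliceosome gene Snrpf (0.36 ± 0.09, adjusted p = 0.653) and the nuclear receptor gene Nr2c1 (0.30 ± 0.08). DESeq2 and limma-voom called Txnrd1 and Snrpf. Hal, a gene of histidine breakdown, held 22, 9, 7, 18 and 12 counts in control and 2, 2, 0, 0 and 2 counts in KI. Its level was low throughout, and its adjusted p was 0.0833; DESeq2, limma-voom and the fit with no low-count filter called it.

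The leading thalamic markers set 2 control libraries and all KI libraries apart from the other 3 controls. Shox2 held 1, 1, 188, 7 and 203 counts in control replicates 6 to 10 and 211, 387, 84, 162 and 204 counts in KI replicates 3 to 7. Control replicates 6, 7 and 9 held almost none, while control replicates 8 and 10 lay within the KI range. At 10 months no library held more than 4 counts of Shox2. The groups overlapped at 3 months, and the log2 fold change of 1.27 ± 0.81 did not pass (adjusted p = 0.9998). In bulk RNA, fewer cells of a type and less RNA per cell cannot be told apart.

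Prkcd, a protein kinase C gene strong in thalamic relay neurons, stood at 10.5, 12.7, 63.3, 14.1 and 45.5 CPM in control and at 46.1, 83.5, 30.8, 42.3 and 60.8 CPM in KI. The same 3 control libraries were low, control replicate 8 was second only to KI replicate 4, and the log2 fold change was 0.85 ± 0.39 (adjusted p = 0.9998). At 10 months, Prkcd lay between 693 and 983 counts per library (13.2 to 18.4 CPM), against 586 to 4067 at 3 months. Prkcd was thus also present in libraries with almost no Shox2. The transcription factor gene Tcf7l2, an effector of Wnt signalling that marks thalamus, stood at 3.54, 3.9, 10.1, 4.24 and 11.8 CPM in control and at 9.65, 18.3, 6.45, 11.3 and 11.0 CPM in KI (0.76 ± 0.29). Tnnt1, a troponin gene, stood at 1.37, 1.13, 5.6, 1.53 and 5.38 CPM in control and at 4.42, 10.3, 3.71, 6.83 and 7.93 CPM in KI (1.16 ± 0.38). In both, as in Shox2, KI replicate 4 was highest and KI replicate 5 lowest among the KI libraries.

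Of the 12 thalamic markers, 11 were tested and 11 lay above 0 (52.4% over all genes), with a median log2 fold change of 0.46. None passed, 8 had an unadjusted p under 0.05 (2.47% of all genes did so in this direction), and in 0 of 11 were the groups apart. The remaining members were the actin-binding Synpo2 (0.61 ± 0.27), the exchange factor Plekhg1 (0.46 ± 0.20), the receptor partner Ramp3 (0.45 ± 0.22), the Wnt effector Lef1 (0.31 ± 0.14), the G-protein regulator Rgs16 (0.30 ± 0.13), the adhesion gene Ntng1 (0.21 ± 0.09) and the glutamate transporter Slc17a6 (0.17 ± 0.15). Gbx2, a thalamic homeobox gene, was too low to test; it reached 0.503 CPM in control replicate 10 and 0.76 CPM in KI replicate 4. The summed level of the 12 markers ran from 149 to 276 CPM in control, from 196 to 371 CPM in KI and from 136 to 160 CPM at 10 months. At 10 months Slc17a6 alone held 28.01 to 50.14 CPM and Ntng1 34.13 to 46.05 CPM, where Shox2 was almost absent. Such a sum therefore does not by itself measure thalamic RNA. No marker was below 10 counts in every 3-month library.

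A thalamic score, the mean of centred log2 CPM over the list, was -1.08, -0.968, 0.458, -0.821 and 0.334 in control and 0.358, 0.959, -0.0842, 0.345 and 0.5 in KI. A fit to the 10 libraries with genotype and this score asked which other genes followed the score at a given genotype. With the list members left out, 5 of 18722 genes passed (0.0267%), and all 5 rose with the score. Slitrk6, a gene of a neuronal adhesion protein, had a slope of 1.89 ± 0.22 log2 units per unit of score (adjusted p = 0.0104). Abhd12b, of the hydrolase family, had 1.56 ± 0.13 (adjusted p = 0.000877), the secretory GTPase gene Rab37 1.05 ± 0.11 (adjusted p = 0.004), and Vipr2, a receptor for vasoactive intestinal peptide, 0.86 ± 0.11 (adjusted p = 0.0225). Adamts19, a metalloprotease gene under 1 CPM named after its value was seen, had 1.53 ± 0.21 (adjusted p = 0.0331). The call count fell to 0 with Shox2 in place of the score and ranged from 2 to 6 without a single library, with Abhd12b and Rab37 called in each of those 10 fits.

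These genes were among those with the larger genotype differences before the score was taken into account. Abhd12b stood at 0.485, 0.525, 2.63, 0.583 and 1.58 CPM in control and at 2.72, 6.26, 1.71, 2.66 and 3.15 CPM in KI, and its genotype log2 fold change was 1.52 ± 0.43 without the score and 0.44 ± 0.17 with it. Rab37 went from 1.00 ± 0.28 to 0.19 ± 0.15, Vipr2 from 0.75 ± 0.25 to 0.12 ± 0.15, and Slitrk6 from 0.80 ± 0.51 to -0.48 ± 0.29. The mean score was -0.42 in control and 0.42 in KI, and these genes were chosen for their slope on it. Their falls therefore largely follow from that choice. The thalamic list's own median went from 0.46 to -0.016, which the score, being built from these members, largely fixes. Even so, 6 of its 11 tested members had a called slope. Lef1 did not follow the score (slope 0.004 ± 0.14), and its genotype log2 fold change was 0.307 without the score and 0.305 with it. Slc17a6 (0.30 ± 0.10) and Ntng1 (0.21 ± 0.07) had smaller slopes that were not called.

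**Figure D2:**
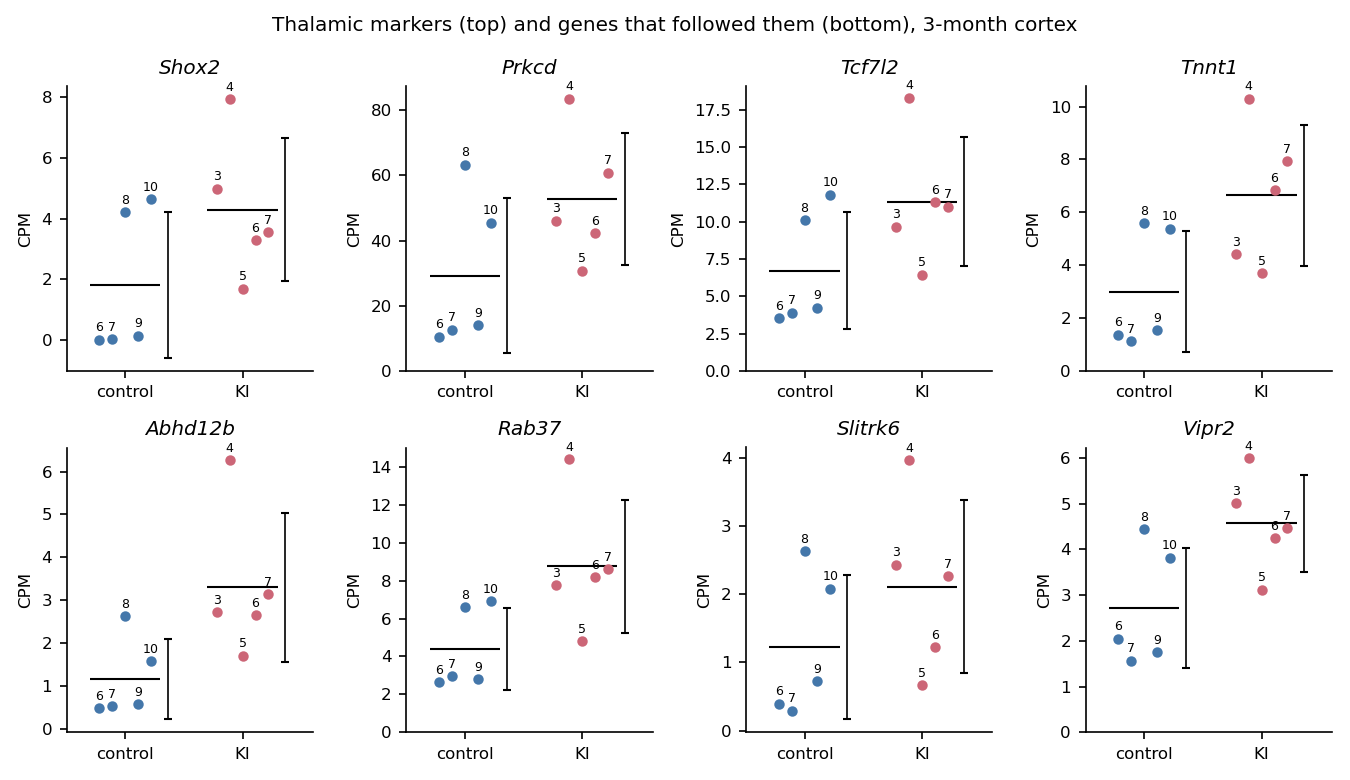
CPM (y) in each 3-month library for 4 thalamic markers (top) and 4 genes whose level followed the thalamic score (bottom); points are libraries with their replicate number, horizontal lines group means, and bars the SD over 5 libraries. Control replicates 6, 7 and 9 are the 3 lowest controls in every panel, and control replicates 8 and 10 lie within or close to the KI range.

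With the thalamic score as a covariate, Tdg (1.69 ± 0.10), Cfap54 (-1.42 ± 0.14), Gm9855 (-6.02 ± 0.22) and Gm15920 (-2.89 ± 0.15) remained called, so that these 4 differences were as large at an equal score. Other lists whose median moved with the covariate included mature oligodendrocyte, from 0.043 to -0.12, hippocampus, from -0.17 to -0.41, and hypothalamus, from 0.037 to -0.18. The hippocampus median was 0.045 without control replicate 10, and that of hypothalamus was -0.45 without KI replicate 7 and 0.22 without KI replicate 5. The median also went from 0.41 to 0.55 for meningeal fibroblasts, from -0.81 to -0.93 for erythrocytes, from 0.24 to 0.35 for antigen presentation and from 0.032 to 0.14 for homeostatic microglia. The complement gene C4b, which reactive glia also express, stood at 22.8, 25.4, 49.0, 20.1 and 18.2 CPM in control and at 22, 82.2, 24.1, 39.8 and 29.7 CPM in KI. Its highest libraries were KI replicate 4 and control replicate 8, which also led in Prkcd, and its log2 fold change went from 0.55 ± 0.34 to -0.12 ± 0.42 with the covariate. Without KI replicate 4 and with no covariate, C4b had 0.09.

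Immediate-early genes, which neurons transcribe rapidly after activity, stood higher in KI in most members. Of 30 tested, 26 lay above 0 (52.4% over all genes), the median was 0.41, 14 had an unadjusted p under 0.05 in this direction (2.47% of all genes), and 0 passed the adjusted test. In 5 members, Fos, Egr2, Egr1, Sik1 and Nr4a3, every KI library exceeded every control library (0.306% of all genes).

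Fos, a transcription factor of the AP-1 complex, stood at 13.8, 6.88, 12.7, 10.7 and 6.11 CPM in control and at 24.9, 27.5, 31.2, 25.6 and 19.9 CPM in KI. The lowest KI library lay above the highest control, with a log2 fold change of 1.36 ± 0.39 (adjusted p = 0.8743). Egr2, a zinc finger factor on chromosome 10, stood at 8.09, 3.42, 5.82, 4.94 and 2.7 CPM in control and at 14.4, 13.6, 14.1, 14.2 and 10.1 CPM in KI (1.41 ± 0.41, adjusted p = 0.8743). Its relative Egr1 ran from 132 to 222 CPM in control and from 233 to 306 CPM in KI (0.65 ± 0.24). The nuclear receptor gene Nr4a3 ran from 26 to 42.1 CPM in control and from 43.1 to 54.8 CPM in KI (0.57 ± 0.16). Sik1, a kinase induced by cyclic AMP, ran from 6.38 to 10 CPM and from 10.2 to 15.0 CPM (0.58 ± 0.20), and the factor gene Klf10 from 18.5 to 33.0 CPM and from 27.4 to 45.3 CPM (0.59 ± 0.16). The synaptic gene Arc had 1.05 ± 0.45 and the phosphatase gene Dusp1 0.71 ± 0.31, both with overlapping groups. Among the other members, Bdnf had -0.07 ± 0.10, Homer1 -0.09 ± 0.12 and Nptx2 0.04 ± 0.14.

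The same list at 10 months had 1 of 30 members above 0 and a median of -0.14. The interaction term, the 10-month minus the 3-month effect, was -1.45 ± 0.55 for Fos, -1.53 ± 0.58 for Egr2 and -0.82 ± 0.22 for Nr4a3, and none passed. The list median was 0.42 with the thalamic covariate and ranged from 0.34 to 0.46 without a single library. Across libraries the score ran from -0.46 in control replicate 10 to 0.46 in KI replicate 5, and KI replicate 7 (-0.0061) lay below control replicate 8 (0.0047).

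Circadian clock genes differed in both directions, without passing the test. The clock is a loop in which the activator ARNTL with CLOCK drives Per and Cry genes through E-boxes, PER and CRY proteins repress that activator, and the factors REV-ERB, ROR, NFIL3, DBP and TEF act on further elements. Of 18 tested members, 7 lay above 0, with 2 higher and 4 lower at an unadjusted p under 0.05 (2.47% and 1.32% of all genes), and 0 passed. The groups did not overlap for Arntl and Nfil3, higher in KI (0.306% of all genes), and for Cry1, Per3 and Tef, lower (0.352%).

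Arntl stood at 40.7, 31.9, 36.4, 35.1 and 38.5 CPM in control and at 43.1, 42.1, 41.2, 42.9 and 48.7 CPM in KI (0.26 ± 0.07, adjusted p = 0.8743). Nfil3 stood at 7.34, 6.4, 7.84, 7.98 and 8.03 CPM in control and at 8.7, 10.4, 10.9, 9.31 and 9.98 CPM in KI (0.39 ± 0.10, adjusted p = 0.7132). In both, the highest control was close below the lowest KI library. On the repressor side, Cry1 stood at 19.6, 18.6, 19.8, 21.1 and 21 CPM in control and at 17.2, 14.8, 15.7, 14.0 and 15.7 CPM in KI (-0.37 ± 0.09, adjusted p = 0.653). Cry1 lies 5.14 Mb from Abca7, within the 20 Mb described above but outside the neighbouring runs there. The immediate-early gene Egr2 is placed likewise. Per3 stood at 85.6, 89.7, 84.5, 95.8 and 88.1 CPM in control and at 71.1, 77.1, 78.2, 77.6 and 57.9 CPM in KI (-0.29 ± 0.09). The output factor Tef ran from 525 to 576 CPM in control and from 434 to 508 CPM in KI (-0.19 ± 0.06). Per2 had -0.48 ± 0.13 with overlapping groups, Dbp -0.24 ± 0.15, Clock 0.05 ± 0.12 and Nr1d1 0.14 ± 0.17. At 3 months limma-voom called Cry1 and Nfil3, which edgeR and DESeq2 did not. With the immediate-early score as covariate, edgeR called Per2.

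At 10 months the differences had the other sign: -0.21 ± 0.07 for Arntl, -0.11 ± 0.10 for Nfil3, 0.17 ± 0.09 for Cry1, 0.11 ± 0.09 for Per3 and 0.15 ± 0.06 for Tef. The interaction was -0.46 ± 0.10 for Arntl (adjusted p = 0.4893) and 0.54 ± 0.13 for Cry1 (adjusted p = 0.5644). Neither passed in edgeR; DESeq2 called Arntl and limma-voom called Cry1. The time of day of tissue collection was not given in the sources used here.

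**Figure D3:**
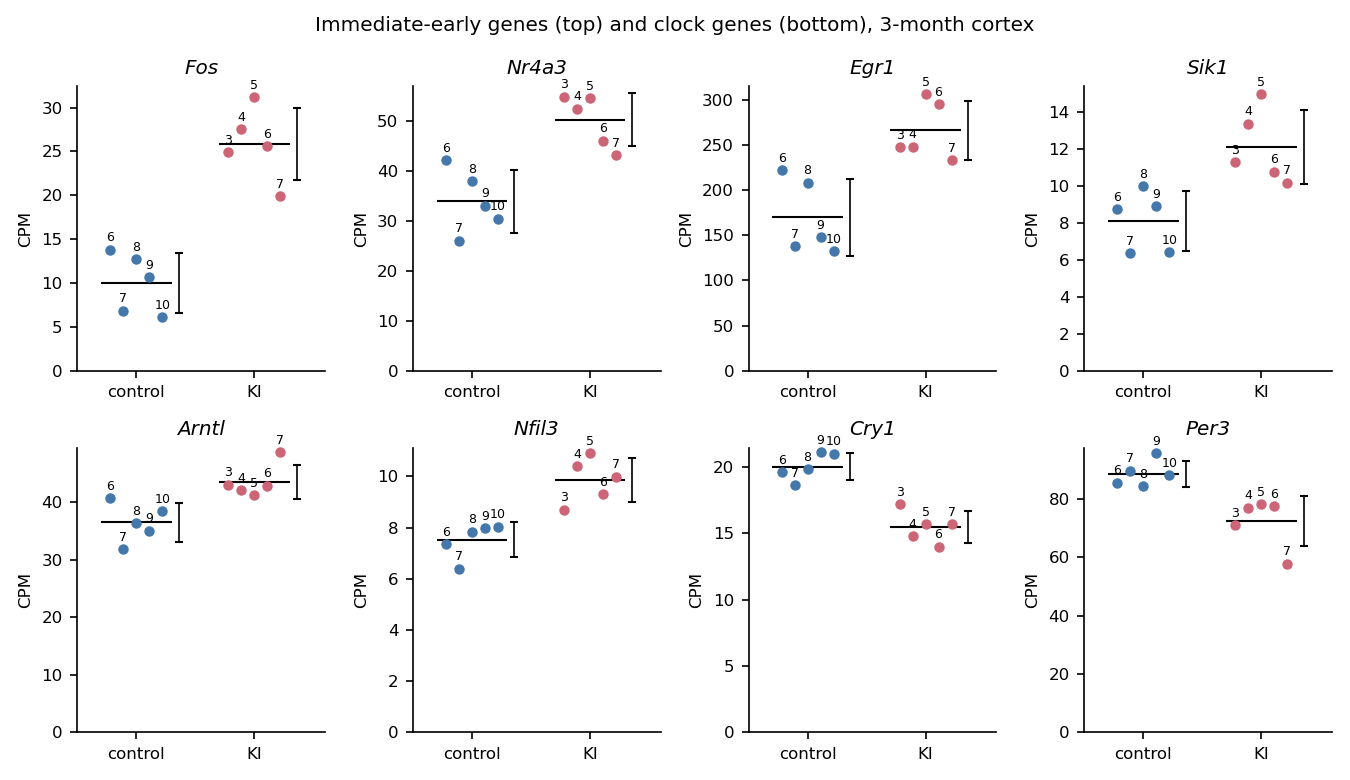
CPM (y) in each 3-month library for 4 immediate-early genes (top) and 4 clock genes (bottom); points are libraries with their replicate number, horizontal lines group means, and bars the SD over 5 libraries. The groups do not overlap in any of the 8 panels, and 0 of these genes passed the adjusted test.

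Promoter stretches are shown for the 5 clock and 2 of the immediate-early members whose groups did not overlap, to place the elements named above. They are RefSeq sequences of build GRCm38.p6, read 5′ to 3′ on the gene's strand, with the matched motif in capitals. The windows searched spanned 250 bases before to 50 after the annotated start, on both strands, in 15 of the 18 clock genes and 23 of the 30 immediate-early genes. Arntl is at chr7:113207531-113207557 and Nfil3 at chr13:52981040-52981086, Cry1 at chr10:85185089-85185134, Tef at chr15:81802526-81802571, Per3 at chr4:151044843-151044890, Fos at chr12:85473804-85473849 and Nr4a3 at chr4:48045138-48045183; Nfil3, Cry1 and Per3 are on the minus strand, and the Arntl match lies after the annotated start.
Arntl: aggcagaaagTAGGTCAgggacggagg
Nfil3: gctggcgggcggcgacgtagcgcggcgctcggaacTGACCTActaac
Cry1: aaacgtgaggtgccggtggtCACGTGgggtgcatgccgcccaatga
Tef: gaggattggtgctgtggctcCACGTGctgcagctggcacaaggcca
Per3: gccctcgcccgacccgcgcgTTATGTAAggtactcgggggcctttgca
Fos: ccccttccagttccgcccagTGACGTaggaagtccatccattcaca
Nr4a3: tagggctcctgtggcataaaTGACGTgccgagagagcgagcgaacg
The ROR element, searched as TAGGTCA, was found in 2 of the 15 clock promoters, Arntl and Nfil3, the 2 members whose KI libraries all lay above control, and in 2.97% of 27025 genes with a promoter. The E-box CACGTG was found in 5 of 15, Cry1, Tef, Per1, Bhlhe41 and Ciart, against 8.09% of all, and the D-box TTATGTAA in Per3 alone, against 1.11%. The cyclic AMP response core TGACGT was found in 12 of 23 immediate-early promoters (52.2%), Fos, Egr2 and Nr4a3 among them, against 8.37% of all. Egr1 and Sik1, whose groups also did not overlap, were not among the 12. Both members with the ROR element stood higher in KI, while of the 5 with an E-box Per1 had 0.29 ± 0.20 and the other 4 had values below 0. The sterol element was found in 1 of 17 cholesterol synthesis promoters, Hmgcs1 (5.88%), against 1.44% of all. A match places letters and shows no binding. No clock gene passed the main test, and the 5 clock promoters shown were chosen because their groups did not overlap in these data. Whether motif and direction go together was not tested.

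Cholesterol synthesis genes lay above 0 by small and similar amounts. Of 25 tested, 24 lay above 0 (52.4% over all genes), and the median was 0.16. An unadjusted p under 0.05 with higher values in KI was found for 13 (2.47% of all genes), and 0 passed. Insig1, a sensor that retains the sterol-regulatory complex, stood at 79.3, 67.1, 70.9, 64.1 and 68.7 CPM in control and at 94.3, 89.0, 82.9, 81.9 and 79.2 CPM in KI (0.29 ± 0.07, adjusted p = 0.653). Its groups met at the edge, with control replicate 6 just above KI replicate 7. Fdft1, squalene synthase, ran from 106 to 127 CPM in control and from 129 to 136 CPM in KI. It was the 1 member of 25 without overlap between groups (0.306% of all genes did so in this direction). Fdft1 shares an end with the protease gene Ctsb, which makes its counts less certain. Hmgcs1, an early enzyme of the pathway, had 0.22 ± 0.07 and the demethylase gene Cyp51 0.25 ± 0.08, whereas Srebf2, which encodes the regulator, had 0.02 ± 0.13. The list score overlapped between groups, from -0.19 to 0.05 in control and from -0.066 to 0.18 in KI. The median was 0.17 with the thalamic covariate and 0.066 with the immediate-early score as covariate.

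Among the genes with a mean of at least 1 CPM that did not pass, Emp2 had the smallest unadjusted p. It encodes a small membrane protein and stood at 24.5, 25.1, 24, 24.7 and 22.6 CPM in control and at 30.4, 29.8, 31.0, 28.2 and 31.0 CPM in KI, without overlap (0.31 ± 0.06, adjusted p = 0.0926). At 10 months it had -0.08 ± 0.06, and DESeq2 called its interaction (-0.40 ± 0.08 in edgeR, adjusted p = 0.4893). Inhba, an activin subunit that neuronal activity induces, ran from 3.23 to 4.65 CPM in control and from 1.89 to 3.15 CPM in KI (-0.68 ± 0.14, adjusted p = 0.2196); at 10 months it had -0.65 ± 0.14. DESeq2 and limma-voom both called Emp2 and Inhba at 3 months. The direction of Inhba was opposite to that of the immediate-early list, and the 17 tested genes of the activin and TGF-beta list, Inhba included, had a median of -0.00032. Wipf3, an actin regulator of brain, ran from 149 to 206 CPM in control and from 119 to 143 CPM in KI (-0.42 ± 0.09, adjusted p = 0.327), with 0.02 ± 0.09 at 10 months; DESeq2 called it at 3 months.

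Chrna6, a nicotinic receptor subunit, ran from 0.623 to 1.06 CPM in control, with KI replicate 7 at 1.06 CPM and the other KI libraries from 1.31 to 1.55 CPM (0.69 ± 0.16, adjusted p = 0.5183). At 10 months its log2 fold change was 0.59 ± 0.16. The subunit genes Chrnb4 (1.21 ± 0.48) and Chrna3 (0.59 ± 0.25), neighbours on chromosome 9 and markers of the habenula, were also low, at most 0.846 and 1.14 CPM. Of the 9 habenula genes listed, 7 were tested and 6 of these lay above 0 (median 0.16, and 0.24 with the thalamic covariate), with Chrnb4 and Chrna3 at an unadjusted p under 0.05. The habenula score, the mean deviation of its members on the log2 scale, ran from -0.31 to -0.0055 in control and from 0.1 to 0.21 in KI, without overlap, whereas the summed level overlapped, from 137 to 165 CPM in control and from 133 to 181 CPM in KI. Its defining gene Pou4f1 stayed under 10 counts in every library, and the part of habenular RNA in Chrna6 was not tested. Among the rest, Pvr, a nectin-like receptor, had 0.35 ± 0.09, Ctxn3, a cortexin, 0.38 ± 0.09, the kinase gene Tec 0.52 ± 0.13 and the lactate transporter gene Slc16a1 0.32 ± 0.08. The potassium channel gene Kcnj2 had -0.42 ± 0.11 and Klhl29, of the kelch family, -0.24 ± 0.06. At 10 months Kcnj2 had 0.24 ± 0.11 and Pvr -0.13 ± 0.08.

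The test of whether the genotype effect differed between ages called 0 of 19623 genes in edgeR (0%), with 883 at an unadjusted p under 0.05 (4.5%). DESeq2 called 4, Fmo2, Arntl, Leo1 and Emp2, and limma-voom 3, Fmo2, Mthfd1l and Cry1. Fmo2, a monooxygenase gene, stood at 3.15, 3.19, 3.46, 6.63 and 3.96 CPM in control and at 3.05, 2.96, 2.72, 1.99 and 2.26 CPM in KI at 3 months. All KI libraries lay below the lowest control (-0.65 ± 0.25), whereas the 10-month log2 fold change was 1.06 ± 0.24 (interaction adjusted p = 0.4094). For the genes called at 3 months, the interaction was -0.26 ± 0.20 for Tdg, -0.25 ± 0.18 for Cfap54, 0.15 ± 0.19 for 1190007I07Rik, 0.08 ± 0.19 for Gm15920 and 1.33 ± 0.38 for Gm9855, and none passed.

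Microglial lists showed little difference at this age. Of 35 tested genes of disease-associated microglia, a state that surrounds plaques, 24 lay above 0 with a median of 0.044, and of 15 homeostatic markers 9 did, with a median of 0.032. Trem2, the lipid-sensing receptor of that state, stood at 11.4, 12.7, 8.02, 9.46 and 9.52 CPM in control and at 7.14, 8.3, 9.03, 8.74 and 10.1 CPM in KI, with overlap (-0.24 ± 0.13). The secreted factor gene Spp1 had 0.40 ± 0.24 and the Wnt antagonist gene Dkk2 0.61 ± 0.23. Interferon-response genes lay above 0 in 25 of 30 (median 0.15), with 0 at an unadjusted p under 0.05, and MHC antigen presentation genes in 15 of 16 (median 0.24), with 1, the immunoproteasome gene Psmb9 (0.48 ± 0.23). Their 10-month medians were 0.046 and -0.059. Among astrocyte markers, Glul, which converts glutamate to glutamine, ran from 1080 to 1210 CPM in control and from 848 to 1060 CPM in KI (-0.27 ± 0.10), and 4 of 14 members lay above 0.

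Markers of tissue around the cortex varied between libraries beside these lists. Choroid plexus genes lay above 0 in 16 of 16 (median 0.91), with 0 at an unadjusted p under 0.05 and a score from -2.1 to 0.82 in control and from -2.0 to 2.0 in KI. The blood-clotting factor gene F5, which plexus expresses, stood at 3.0, 7.53, 12.4, 13.7 and 5.44 CPM in control and at 47.2, 2.55, 33.2, 1.52 and 15.9 CPM in KI. KI replicates 4 and 6 were as low as the lowest control, while KI replicates 3 and 5 were the highest. The summed plexus level ran from 383 to 2130 CPM and from 360 to 3470 CPM, and no marker was under 10 counts in every library. Its part in the ciliary values above, whose median was 0.18, was not tested.

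Meningeal fibroblast genes lay above 0 in 14 of 15 (median 0.41), with 5 at an unadjusted p under 0.05 (2.47% of all genes in this direction). The transporter gene Slc6a13 stood at 11.1, 15.3, 13.6, 11.8 and 6.59 CPM in control and at 15.7, 14.7, 16.3, 17.2 and 23.7 CPM in KI (0.58 ± 0.19). Control replicate 10 was lowest and KI replicate 7 highest, and the list median was 0.30 and 0.25 without them. Border macrophage genes lay above 0 in 11 of 11 (median 0.32), and 0.10 without control replicate 10. Mrc1, the mannose receptor of these cells, stood at 1.92 CPM in that library and at 4.64 to 10.2 CPM in the other 9. The antigen presentation median was 0.17 without control replicate 10 and 0.13 without KI replicate 7; the part of meninges and macrophages in it was not tested. The summed level of the meningeal list ran from 479 to 1010 CPM in control and from 757 to 1360 CPM in KI, and that of border macrophages from 6.95 to 18.8 and from 16.3 to 21.3 CPM, with no member of either under 10 counts in every library.

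Erythrocyte genes lay below 0 in 5 of 5 tested (median -0.81), with 4 at an unadjusted p under 0.05 (1.32% of all genes in this direction). Alas2, the first enzyme of haem synthesis in red cells, stood at 0.719, 0.567, 0.854, 1.0 and 0.961 CPM in control and at 0.402, 0.308, 0.464, 0.508 and 0.522 CPM in KI, without overlap (-0.89 ± 0.29). The haemoglobin gene Hbb-bs had -0.83 ± 0.31 with overlapping groups, lowest in KI replicate 3 at 2.17 CPM. The summed list ran from 10.4 to 19.4 CPM in control and from 4.21 to 12.4 CPM in KI, and Slc4a1, the anion exchanger of red cells, was under 10 counts in every library. How far residual blood differed between the groups was not tested.

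**Figure D4:**
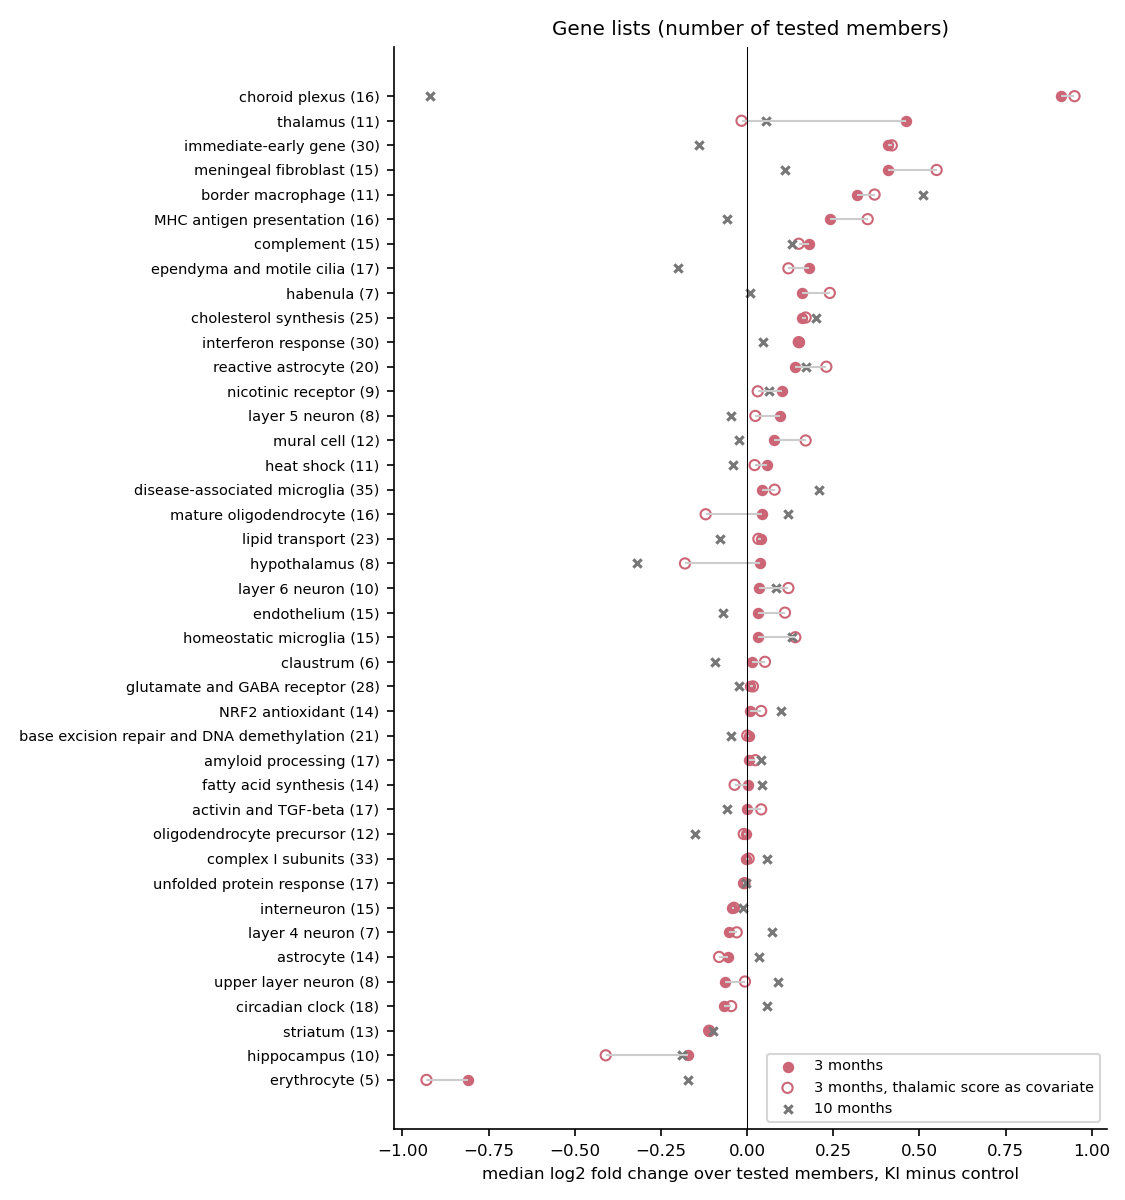
Median log2 fold change of KI against control (x) over the tested members of each gene list (y, number of tested members in parentheses) at 3 months (filled), at 3 months with the thalamic score as covariate (open) and at 10 months (crosses). The thalamic list moves from 0.46 to -0.016 with the covariate, while the immediate-early list stays at 0.41 and 0.42 and the cholesterol list at 0.16 and 0.17.

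**Figure D5:**
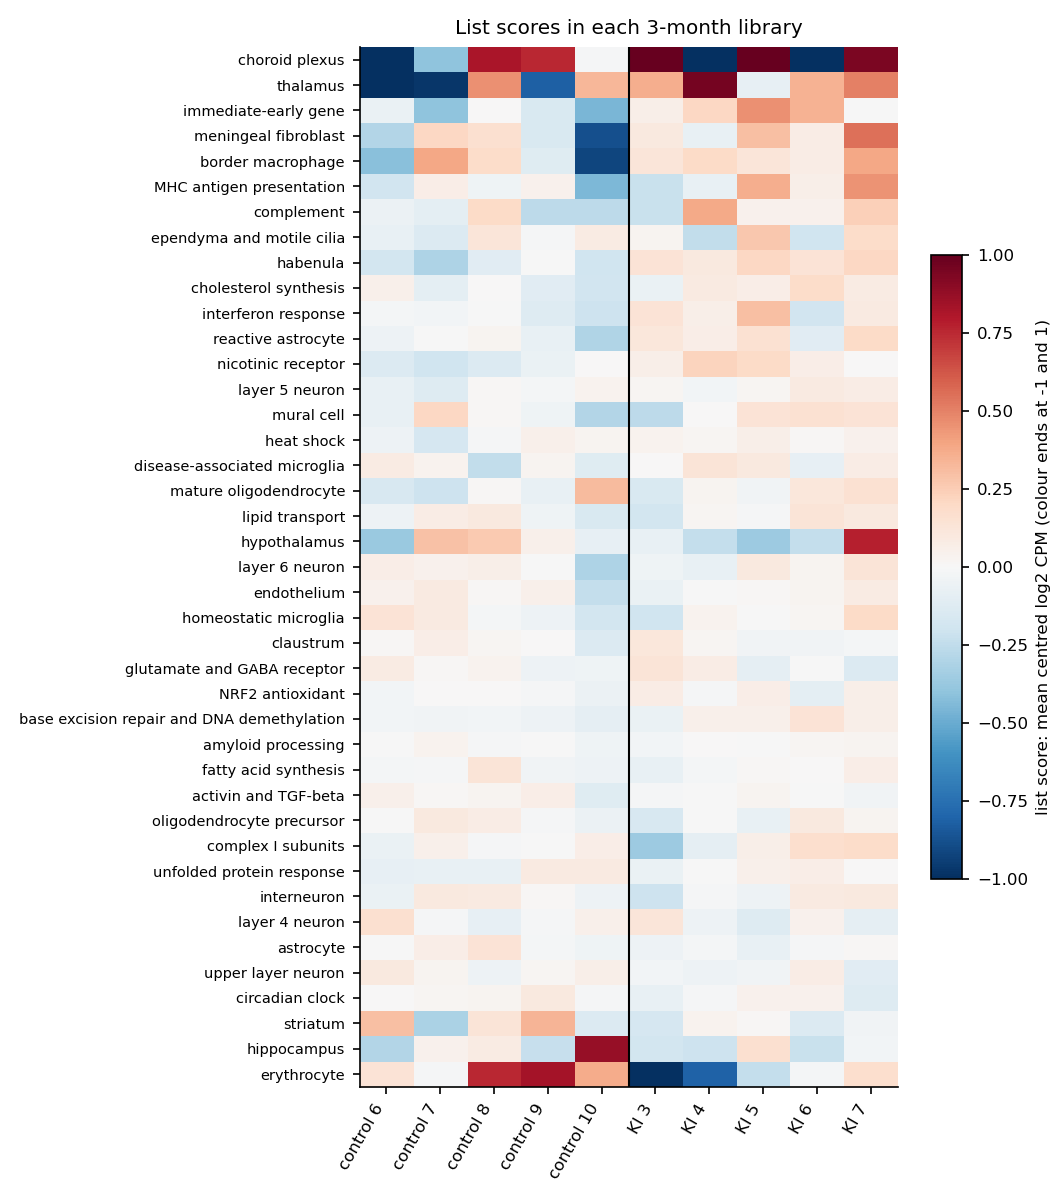
Score of each gene list (rows, ordered by median log2 fold change) in each 3-month library (columns), as the mean of centred log2 CPM, with the colour scale ending at -1 and 1. Control replicate 10 stands out in hippocampus (0.87), border macrophage (-0.92) and meningeal fibroblast (-0.88), and KI replicate 7 in hypothalamus (0.78).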

How the data were processed

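Total RNA from cortex was sequenced on an Illumina HiSeq 4000, per the labels' protocols. The authors deposited raw counts per gene (43346 genes), on build mm10 per the submitters' processing notes; the sources used here do not give aligner, annotation release or strand setting. All 37 mitochondrial genes were 0. With unknown strand handling, counts of overlapping genes are uncertain. The deposited gene lengths were not used.

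Counts were tested with edgeR 4.0.16 (TMM, factors 0.9721 to 1.001 at 3 months; filterByExpr; robust quasi-likelihood fit) over the 4 groups of 20 libraries, with 16 residual degrees of freedom and Benjamini-Hochberg adjustment at 0.05; the score slope and covariate fits used the 10 libraries of 3 months. CPM is relative to the TMM-scaled library size, and ± on a log2 fold change is its SE. Scores use log2 CPM with a prior count of 2. Alternatives were DESeq2 1.42.0, limma-voom 3.58.1 with quality weights, RLE scaling, other filters, covariates, a replicate block and each library left out.

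The comparison, the gene lists (41, of which 2 symbols were not matched) and the naming rule were chosen with earlier results of these data known. Named were all called genes, the next 15 of smallest unadjusted p with a mean of at least 1 CPM and an ordinary symbol, Abca7, all thalamic markers, up to 3 members per list, and slope genes at 1 CPM or more; other names were chosen after their values were seen. On simulated counts, edgeR recovered 8%, 74%, 94% and 98% of 50 genes changed 1.2-, 1.5-, 2- and 4-fold in the genotype comparison (19470 genes). For the score slope (18893 genes) it recovered 2%, 54%, 92% and 98% at slopes of 0.25, 0.5, 1 and 1.5. Sequences were aligned with Biopython 1.88.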

Additional observations from a re-analysis of the deposited data

Results flagged for a closer look

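Of 262 groups of 5 libraries checked, 15 held 1 library far from the other 4 by Dixon's criterion, where chance gives about 1 in 20. Control replicate 10 accounted for 6 of the 15. It had 0.503 CPM of Gbx2 (at most 0.0225 in the other controls), 7.78 CPM of the hippocampal marker Lct (1.53 to 2.31) and 10.4 CPM of the copper carrier gene Cp (16.1 to 18). Its scores were -0.144 for claustrum (0.00569 to 0.0665), -0.308 for layer 6 neurons (-0.00242 to 0.0655) and -0.241 for endothelium (0.0118 to 0.0911).

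KI replicate 7 accounted for 5. It had 10.1 CPM of Egr2 (13.6 to 14.4 in the other KI libraries), 48.7 CPM of Arntl (41.2 to 43.1), 23.7 CPM of Slc6a13 (14.7 to 17.2) and 17.1 CPM of the meningeal gene Aldh1a2 (11.5 to 12.7), and a hypothalamus score of 0.783 (-0.364 to -0.0734). In KI replicate 3, Pvr stood at 13.9 CPM (12 to 12.5). Control replicate 8 had 49 CPM of C4b (18.2 to 25.4) and a fatty acid synthesis score of 0.135 (-0.0524 to -0.015). Control replicate 9 had 6.63 CPM of Fmo2 (3.15 to 3.96).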

How the results depend on the processing

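Genotype calls at 3 months (5) numbered 12 in DESeq2 and 12 in limma-voom, and 4 or 5 without a single library; Gm9855, Gm15920, Tdg and Cfap54 were called under each alternative run. Calls for the difference between ages (0) numbered 4 in DESeq2 and 3 in limma-voom, and 0 without any single library. Slope calls (5) numbered 12 in DESeq2, 8 in limma-voom, 8 with no genotype term and 0 with Shox2 in place of the score, and 2 to 6 without a single library. Genes whose groups did not overlap (129) numbered 205 to 354 without a single library, as fewer libraries are compared. Signs turned in several values. Slitrk6 had -0.48 with the thalamic score and -0.34 with Shox2 as covariate, and C4b -0.12 with the score. With that covariate, members of the thalamic list also crossed 0 (Prkcd -0.12, Tcf7l2 -0.09, Plekhg1 -0.13, Synpo2 -0.13, Slc17a6 -0.09, Rgs16 -0.02), as did the list medians of thalamus (-0.016), mature oligodendrocyte (-0.12) and hypothalamus (-0.18). Other list medians close to 0 changed sign under some alternatives, and that of hippocampus was 0.045 without control replicate 10. The interaction of Gm15920 ranged from -0.012 (without KI replicate 3) to 0.1787 without a single library. With the replicate number as a block, Abca7 had 0.13, Slc17a6 -0.015 and Lct 0.015. By its design, that fit compares the genotypes directly only within numbers 6 and 7. Only numbers 6 and 7 occur in both genotypes at 3 months, and their libraries' deviations correlated at -0.0138 and 0.172. Without a reference value, these correlations cannot tell whether libraries of the same number share more than that number. The replicate block gave 4 genotype calls and 0 interaction calls. Depth and spread limit small changes: 8% of simulated 1.2-fold changes were recovered.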
